A study of Mus musculus with 18 samples.

Results

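Extraembryonic mesoderm lines the yolk sac, amnion and chorion of the mouse embryo and gives rise to the allantois. The cells described here were 8559 barcodes from 18 libraries, taken out of 105556 barcodes that held at least 3000 mouse UMIs (unique molecular identifiers, the counted RNA molecules), which is 8.108% of them. A barcode was a member if it held at least 1 UMI of each of Hand1, Foxf1 and Bmp4, here taken to mark this tissue. It also had to hold no UMI of Tbx4 (allantois and hindlimb), Cdh5 (endothelium) or Nkx2-5 (cardiac progenitors). The members were therefore chosen by measured values, and the levels of these 6 genes are a description of the choice.

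Each library came from a single E8.5 embryo on the 129S4/SvJae background, profiled with 10x Genomics 3' chemistry. There were 7 wild-type (WT) libraries with 2400 members, 3 Dnmt1 KO libraries with 917, 4 Dnmt3a KO libraries with 2434 and 4 Dnmt3b KO libraries with 2808. Null embryos and their wild-type counterparts came from crosses of heterozygous mice, so the mutations were constitutive and present in every lineage, including the membranes. Members per library ranged from 86 in WT 5 to 865 in Dnmt3b KO 11, holding 3719028 to 32015148 UMIs. The labels name separate embryos, but Dnmt3b KO 1 and 2 shared 7493 of their barcodes above the UMI minimum and 358 of their member barcodes, 63.36% and 57.56% of the members of each. No other pair of libraries shared more than 1 member barcode. The counts of these 2 libraries were therefore summed and treated as 1 library, written Dnmt3b KO 1 and 2, which left 17. With these 2 counted by distinct barcode, the members numbered 8201 in all. UMI totals over their shared barcodes had a Spearman rho of 0.3436, and whether the barcodes stand for the same cells was not tested.

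In the extraembryonic mesoderm, BMP4 and BMP2 are secreted ligands that act through type I and type II serine kinase receptors and SMAD proteins to switch on ID and MSX transcription factors. HAND1 and FOXF1 are transcription factors required for yolk sac and allantois development, and the tissue supplies growth factors and matrix to the blood islands and vessels beside it. DNMT1 copies CpG methylation onto newly made DNA strands, whereas DNMT3A and DNMT3B place it on unmethylated DNA. Germline genes, imprinted genes and genes on the inactive X chromosome are known for being held silent with the help of this mark.

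The promoters of the germline genes carry the CpG positions that these enzymes methylate. The 250 bases before the RefSeq start site (build GRCm38.p6, 5' to 3' on the gene's strand) are shown for 4 germline genes that were among the 8 of lowest p in Dnmt3a KO members, with every CpG in capitals. Stk31 encodes a testis kinase, Slc25a31 a germ cell ADP/ATP carrier, Syce1 a protein of the synaptonemal complex and Rpl39l a ribosomal protein paralogue of the testis.
Stk31 (chr6:49395289-49395538, plus strand): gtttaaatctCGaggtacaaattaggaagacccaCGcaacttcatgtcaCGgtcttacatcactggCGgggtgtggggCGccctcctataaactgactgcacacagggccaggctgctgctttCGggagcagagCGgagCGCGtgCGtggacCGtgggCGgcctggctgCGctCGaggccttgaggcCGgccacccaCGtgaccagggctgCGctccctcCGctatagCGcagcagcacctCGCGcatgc
Slc25a31 (chr3:40708621-40708870, plus strand): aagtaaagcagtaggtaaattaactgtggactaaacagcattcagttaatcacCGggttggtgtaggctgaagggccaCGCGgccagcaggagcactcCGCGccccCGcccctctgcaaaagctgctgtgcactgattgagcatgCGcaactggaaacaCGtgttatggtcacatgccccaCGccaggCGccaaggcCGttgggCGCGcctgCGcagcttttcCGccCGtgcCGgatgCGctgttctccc
Syce1 (chr7:140787855-140788104, minus strand): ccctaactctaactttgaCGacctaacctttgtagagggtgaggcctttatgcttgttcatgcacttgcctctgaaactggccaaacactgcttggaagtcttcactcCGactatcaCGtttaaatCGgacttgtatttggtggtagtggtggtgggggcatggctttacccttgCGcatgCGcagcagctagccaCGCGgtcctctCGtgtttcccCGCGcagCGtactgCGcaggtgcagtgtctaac
Rpl39l (chr16:10169978-10170227, plus strand): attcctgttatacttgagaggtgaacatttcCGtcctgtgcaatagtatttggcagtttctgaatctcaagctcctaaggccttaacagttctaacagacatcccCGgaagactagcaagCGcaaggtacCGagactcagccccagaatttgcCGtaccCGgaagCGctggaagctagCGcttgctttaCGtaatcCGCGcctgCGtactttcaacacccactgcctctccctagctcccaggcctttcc

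These windows held 21 CpGs in Stk31, 18 in Slc25a31, 13 in Syce1 and 12 in Rpl39l. The E-box CACGTG, a palindrome that reads the same on both strands and contains 1 CpG, was present in the Stk31 and Slc25a31 windows and in neither of the others. Of the 22 genes that were called higher in all 3 KO groups (listed further on), 10 lost the Dnmt3a KO call without the library Dnmt3a KO 13, and 18, Syce1 among them, lost it with counts thinned to equal depth. A promoter entry was found for 20 of the 22. Of those 20, 7 held CACGTG, which is 35% against 8.45% of the 10725 matched promoters of tested genes and 6.05% of all 27025 entries. Their median CpG number was 13.5, against 16 for tested genes and 6 for all entries. The second motif searched was TCCCGC, on either strand, and it was found in 45% of the same 20 windows against 30.5% of tested genes. Among all genes called higher in Dnmt1 KO, Dnmt3a KO and Dnmt3b KO, matched promoters held CACGTG in 8.4%, 29.2% and 13.8%. They held TCCCGC in 18.3%, 37.5% and 25.2%. These shares describe letters in a window and carry no test.

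The label was checked on sums of marker genes that, apart from the 3 excluding genes, the rule did not use. The 12 further extraembryonic mesoderm markers, which include the keratins Krt8 and Krt18 and the mesenchymal genes Pmp22 and Postn, summed to between 3027 and 3777 CPM (a level scaled to the total UMIs of the summed cells) in WT members. The median of the same sum in the other cells of the WT libraries was 920.3 CPM. Dnmt1 KO members ranged over 2717 to 4294 CPM. In WT, allantois genes (median 184.2 CPM in members and 85.83 CPM in other cells) and intermediate mesoderm genes (64.53 and 36.73 CPM) were also higher in members. Those of the other lineages listed were lower. The allantois, endothelium and cardiomyocyte sums include Tbx4, Cdh5 and Nkx2-5, which the rule holds at 0 in members only. The lower endothelium and cardiomyocyte sums are thus partly set by the rule. The check thus does not separate the members from allantois or intermediate mesoderm. Lateral plate mesoderm of the embryo had no list of its own and was not checked. Median UMIs per member cell ranged from 17520 to 66022 across libraries.

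Marker genes of other cell types were also counted in the members. The embryonic globin Hba-x, an abundant RNA of primitive red cells, ranged over 9.68 to 1962 CPM in WT members, 6.35 to 123 CPM in Dnmt1 KO, 152 to 1350 CPM in those of Dnmt3a KO and 695 to 1420 CPM in those of Dnmt3b KO. The 9 extraembryonic endoderm genes summed to between 60.23 and 858.2 CPM in WT members. Immune and megakaryocyte genes summed to at most 3.281 CPM in any library. Whether free RNA or doublets contributed was not tested, but 552 members (6.449%) were called doublets, and the results without them are given under the dependence on processing.

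The rule also left cells close to its border. Within 1000 UMIs above the minimum lay 44 members, and 43 barcodes that met the gene conditions lay within 1000 UMIs below it. All 3 defining genes stood at exactly 1 UMI in 106 members, and 5677 members had at least 2 UMIs of each. Among barcodes with all 3 defining genes, 3319 were barred by Tbx4, 497 by Nkx2-5 and 306 by Cdh5, and a barcode with more than 1 of these genes is counted under each. In WT members Hand1 stood at 298 to 442 CPM, Foxf1 at 175 to 263 CPM and Bmp4 at 151 to 202 CPM. In Dnmt1 KO members the respective values were 229 to 416, 133 to 184 and 110 to 149 CPM, which is a description because these genes chose the cells.

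The share of members among barcodes depended on sequencing depth. A deeper barcode is more likely to show all 3 genes, and also to show an excluding gene. Thinning reached the excluding genes too, so a barcode barred at full depth could count as a thinned member. In WT 3, 376 of 686 barcodes with all 3 genes were members at full depth and 52 of 66 after thinning. In Dnmt1 KO 1 these counts were 274 of 313 and 27 of 27. The thinned share therefore holds cells that the rule bars, to an extent that differs between libraries. After thinning to 3000 UMIs WT libraries held 1.18% ± 0.343 (SD, n = 7) members. Dnmt1 KO libraries held 1.08% ± 0.639 (n = 3), those of Dnmt3a KO 1.24% ± 0.456 (n = 4) and those of Dnmt3b KO 1.46% ± 0.297 (n = 3). In WT the lowest, median and highest libraries were 0.717%, 1.13% and 1.68%, and every group overlapped them. Against WT the log2 difference was -0.23 (Dnmt1 KO), 0.03 (Dnmt3a KO) and 0.33 (Dnmt3b KO), and none passed the two-sided exact permutation test (adjusted p = 0.862, 0.915 and 0.775). With the excluding genes left out of the rule, the thinned Dnmt1 KO difference was -0.344 (adjusted p = 0.65 by the same test).

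At full depth Dnmt1 KO libraries held 10.9%, 12.4% and 18.1% members, all above the highest WT library at 9.7%. WT libraries averaged 7.33% ± 1.76, Dnmt3a KO 7.98% ± 2.5 and Dnmt3b KO 9.41% ± 2.98. The Dnmt1 KO difference at full depth was 0.92 on the log2 scale (two-sided exact permutation p = 0.00833, the smallest the design allows, adjusted p = 0.025). Without Dnmt1 KO 1, 2 or 3 the difference was 0.707, 1.07 and 0.977, but 2 libraries against 7 cannot give a p below 0.0278 (0.0833 when adjusted), so no call was possible with 1 of them left out. Thinned to 6000 UMIs, Dnmt1 KO libraries held 4.8% ± 1.86 members and WT libraries 3.09% ± 0.52, here out of barcodes with at least 6000 UMIs. In Dnmt1 KO 3 these were 1623 of its 2444 barcodes. Shares at 6000 UMIs thus differ from the others in the barcodes counted as well as in depth. The log2 difference was 0.59 (two-sided exact permutation p = 0.0167, adjusted p = 0.05). At 3000 UMIs the Dnmt1 KO shares rested on 27, 29 and 13 members. By group mean, Dnmt1 KO thus ranked highest at full depth and at 6000 UMIs and lowest at 3000 UMIs, and no change of share was read from it. A share of captured barcodes also cannot separate more cells of this kind from fewer cells of the others, nor fewer cells from less RNA of the 3 genes per cell. Tbx4-positive cells, defined as barcodes with at least 1 UMI of each of Tbx4, Foxf1 and Hand1 and none of Cdh5 or Nkx2-5, whether or not they held Bmp4, made up 3.41% ± 1.76 in WT and 0.852% ± 0.208 in Dnmt1 KO at full depth. A cell with Tbx4 RNA that gave no Tbx4 UMI stays among the members, so the share of members and that of Tbx4-positive cells are tied by the rule.

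**Figure D1:**
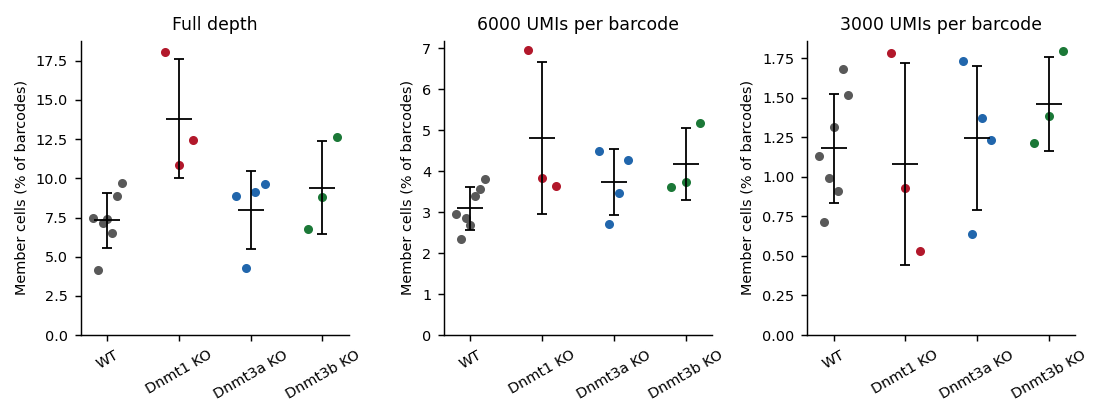
Share of member cells by genotype at full depth, thinned to 6000 UMIs and thinned to 3000 UMIs per barcode. Shares are percent of barcodes with at least 3000 mouse UMIs, or with at least 6000 in the panel at 6000 UMIs. Points are libraries, with Dnmt3b KO 1 and 2 averaged into 1 point, and bars are the mean ± SD. Dnmt1 KO lies above WT at full depth (13.8% against 7.33%). It has the higher mean at 6000 UMIs (4.8% against 3.09%) and overlaps WT at 3000 UMIs (1.08% against 1.18%).

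Expression was compared on counts summed over the members of each library, with edgeR's quasi-likelihood test on 14198 genes. Calls needed an adjusted p below 0.01 together with a log2 change of 1 or more in either direction. The 3 KO groups were set against the same 7 WT libraries, so their results share these controls. Dnmt1 itself stood at 92.2, 111 and 118 CPM in the lowest, median and highest WT library and at 15.1, 12.8 and 14.5 CPM in the Dnmt1 KO libraries, a fall of 2.84 ± 0.13 (SE) on the log2 scale (adjusted p = 4.67e-11). Dnmt3a stood at 22.1, 25.4 and 33.3 CPM in WT and 9.99, 11.6, 8.55 and 12 CPM in Dnmt3a KO (log2 change -1.35 ± 0.20, adjusted p = 0.00166), a call that was lost without Dnmt3a KO 13. It was also low in Dnmt3b KO 11 (13.2 CPM) and Dnmt3b KO 12 (9.26 CPM), but not in Dnmt3b KO 1 and 2 (26.4 CPM), and the group was not called (-0.70 ± 0.21, adjusted p = 0.0786). The label of Dnmt3b KO could not be checked by its target in these 3' counts. Dnmt3b stood at 31.4, 39.6 and 49.4 CPM in those libraries, inside the WT range of 27.2 to 54.4 CPM (log2 change -0.11 ± 0.20, adjusted p = 0.802). A 3' tag outside the altered part of the gene would not report the mutation.

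In Dnmt1 KO members, 15 of 35 Hox genes fell, imprinted genes moved in both directions, and germline genes rose from near 0. The study inferred a minor developmental delay of Dnmt1 KO embryos from cell type proportions, in a set that included published CRISPR embryos. Stage and genotype therefore cannot be told apart in these values. Of the 14198 genes tested, 651 were higher (4.59%) and 346 lower (2.44%). All 3 Dnmt1 KO embryos were scored male from Y-linked RNA, as were all 4 Dnmt3a KO embryos, Dnmt3b KO 1 and 2 and Dnmt3b KO 11, whereas WT 2 was the only male among WT. Sex was therefore unevenly spread over the groups. With sex as a covariate 588 genes were higher and 292 lower, and 697 of the 997 calls were shared. Of the 997 called genes, 97 lie on the X chromosome, which is 17.7% of the 548 X-linked genes tested against 6.59% of the other genes. A further 4 lie on the Y chromosome. Sex and genotype were nearly inseparable in this comparison, and the shares were not recomputed with sex as a covariate.

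Of the BMP pathway genes, 1 antagonist was the only one called. None of 6 ligands tested, none of 10 receptors and Smads and none of 11 targets was called in any KO group. Of all genes tested, 0.183% were called higher and 0.0141% lower in Dnmt3a KO and 1.13% and 0.0423% in Dnmt3b KO, so beside these shares and those of Dnmt1 KO above, lists of this size would hold few or no called genes, and 0 calls do not set the pathway apart. The median log2 changes of the 3 lists lay between -0.27 and 0.18. Bmp2, a ligand made by the same cells as Bmp4, stood at 40.3, 43.4 and 50.8 CPM in the lowest, median and highest WT library and at 50.5, 51 and 39.7 CPM in Dnmt1 KO. Bmp5, a further ligand, stood at 15.7 to 27.6 CPM in WT and 35.6, 31.7 and 29.5 CPM in Dnmt1 KO. These 3 values all lay above WT, but the change of 0.57 ± 0.13 was under the minimum size (adjusted p = 0.00436).

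Of the components that receive the signal, the common mediator Smad4 stood at 79.1 to 112 CPM in WT and 92.8 to 95.7 CPM in Dnmt1 KO. The immediate targets Id1 and Id3, which bind and block other helix-loop-helix factors, ranged over 165 to 238 CPM and 288 to 434 CPM in WT. In Dnmt1 KO they ranged over 178 to 249 CPM and 255 to 343 CPM, so the groups overlapped. Msx1, a homeobox target, was 151 to 231 CPM in WT and 151, 125 and 111 CPM in Dnmt1 KO (log2 change -0.40 ± 0.11, adjusted p = 0.0142, not called). Among 10 antagonists only Cer1, a secreted inhibitor of Nodal, BMP and Wnt ligands, was called. It rose from 0 to 0.37 CPM in WT to 0.418, 0.635 and 2.77 CPM in Dnmt1 KO (log2 change 2.80 ± 0.69, adjusted p = 0.00574), and the call was lost without Dnmt1 KO 3 (1.44) or without WT 4 (2.78).

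Of 18 Wnt pathway genes tested, 4 were lower in Dnmt1 KO, where 2.44% of all genes were, and none was higher (list median -0.41). Wnt6, a ligand, stood at 26.8, 44.6 and 52 CPM in WT and 17.6, 19.5 and 11.7 CPM in Dnmt1 KO (log2 change -1.32 ± 0.19, adjusted p = 7.22e-05). Wnt11, a ligand of the non-canonical branch, fell from a WT range of 7.83 to 16.2 CPM to 3.28, 2.61 and 3.11 CPM (-1.75 ± 0.28). Sp5, a transcription factor switched on by beta-catenin, fell from 15.5 to 52.5 CPM to 10.3, 11.3 and 7.09 CPM (-1.83 ± 0.32). Sfrp1, a secreted Wnt binder, also passed the test (-1.02 ± 0.22). Of these 4 genes, which were chosen by their call, every Dnmt1 KO library lay below every WT library. The share of all genes tested that do so was not counted. With members chosen after thinning to 3000 UMIs, a setting with fewer cells, Wnt6, Sp5 and Sfrp1 lost the call. Dnmt1 KO 3 (13 thinned members) and WT 5 (12) fell under the minimum of 20 and left that fit. Its Dnmt1 KO values rested on Dnmt1 KO 1 and 2. Sp5 also lost the call with sex as a covariate, and Sfrp1 without WT 1, WT 5, Dnmt1 KO 1 or Dnmt1 KO 2. None of 12 Hedgehog genes was called, which is close to the share over all genes. Gas1, a co-receptor, was 51.2 to 93.3 CPM in WT and 40, 29.3 and 36.4 CPM in Dnmt1 KO (-0.98 ± 0.17, adjusted p = 0.000329), just under the minimum size.

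**Figure D2:**
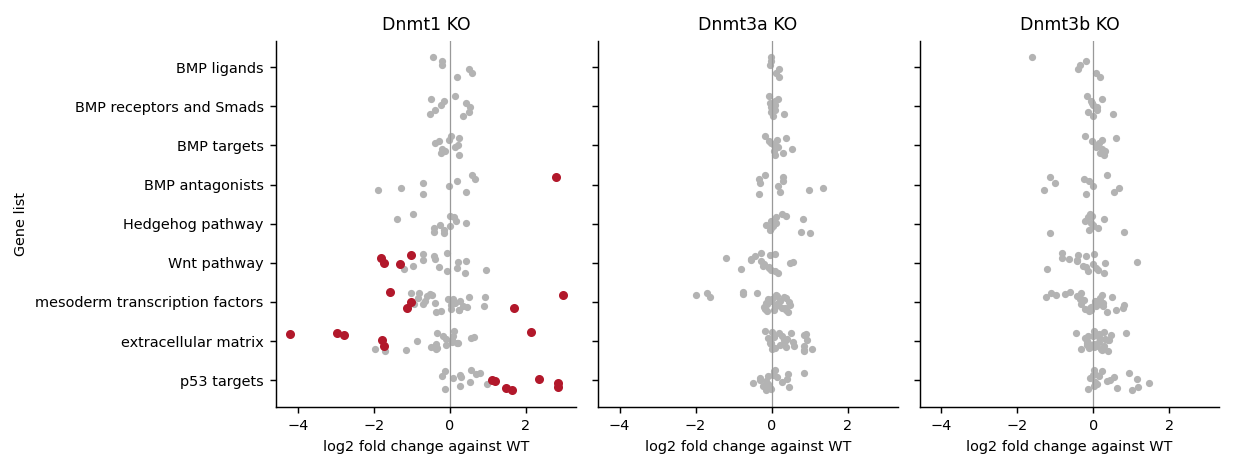
Log2 fold change against WT for each tested gene of 9 lists in the 3 KO groups. Coloured points passed the test and grey points did not. BMP ligands, receptors and targets hold no coloured point in any panel, and every coloured point lies in the Dnmt1 KO panel.

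Of 31 mesoderm transcription factors tested, 2 were higher and 3 lower in Dnmt1 KO, against 4.59% and 2.44% of all genes, with a list median of -0.05. The count of higher genes was close to that share. Mesp1, a factor of nascent mesoderm, stood at 1.17, 3.84 and 9.53 CPM in the lowest, median and highest WT library and at 18.1, 26.4 and 49.5 CPM in Dnmt1 KO (log2 change 2.96 ± 0.41, adjusted p = 3.97e-05). Gata2, a haematopoietic and endothelial factor, rose from 1.1 to 1.85 CPM in WT to 2.15, 6.14 and 5.05 CPM (1.68 ± 0.27). Cdx4, a caudal homeobox factor upstream of posterior Hox genes, fell from 97.5 to 232 CPM in WT to 48, 52.6 and 54.9 CPM (-1.58 ± 0.20, adjusted p = 1.82e-05), a call lost with members chosen after thinning. Twist2 and Gata3, factors of mesenchyme and of amnion and trophoblast, fell by 1.02 and 1.13 on the log2 scale. Both of these calls were lost in several of the fits that left out 1 library. Twist1, at 111 to 206 CPM in WT and 91.6 to 118 CPM in Dnmt1 KO, was not called.

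Of the 35 Hox genes tested, 15 were lower in Dnmt1 KO members, against 2.44% of all genes, and none was higher, with a list median of -1.15 against 0.00 over all genes tested. The 4 clusters contributed unequally. In the Hoxc cluster 6 of 6 tested genes were lower, in Hoxa 6 of 11, in Hoxd 2 of 9 and in Hoxb 1 of 9. The files carry the symbol Hoxd4 on 2 gene identifiers, so the 9 Hoxd rows stand for 8 symbols. Hoxc8 (chr15:102990607-102994111, plus strand), a homeobox gene of the thoracic body axis, had the lowest p of the Hox genes. It stood at 112, 128 and 151 CPM in the lowest, median and highest WT library and at 24.7, 22.9 and 11.9 CPM in Dnmt1 KO (log2 change -2.62 ± 0.19, adjusted p = 1.74e-08).

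Hoxa9, a posterior gene of the Hoxa cluster, stood at 23.8, 29.1 and 41.7 CPM in WT and 2.15, 2.19 and 1.46 CPM in Dnmt1 KO (-3.96 ± 0.34, adjusted p = 1.75e-07). Hoxb9, its paralogue, stood at 50.2, 67.4 and 76.9 CPM in WT and 10.3, 8.54 and 8.55 CPM in Dnmt1 KO (-2.76 ± 0.32). Hoxa7 fell from 31 to 49.1 CPM to 8.6, 6.35 and 8.02 CPM (-2.31 ± 0.22), Hoxc4 by 2.23, Hoxc6 by 2.51, Hoxc9 by 1.74 and Hoxc10 by 3.82 on the log2 scale. For each of these genes, also chosen by their call, the Dnmt1 KO and WT libraries did not overlap, a share not counted over all genes tested. The anterior gene Hoxb2 did overlap, at 91.2 to 148 CPM in WT and 108, 77 and 79.3 CPM in Dnmt1 KO. Hoxb8 was 53.2 to 95.1 CPM in WT and 47.5, 39.5 and 24 CPM in Dnmt1 KO (-0.86 ± 0.18, adjusted p = 0.00193, below the minimum size). Hoxa4 and Hoxa5 passed with the highest p of the 15 and lost the call in several fits that left out 1 library, and Hoxd3 lost it without Dnmt1 KO 1 (adjusted p = 0.0114) or Dnmt1 KO 3 (adjusted p = 0.0119). With members chosen after thinning to 3000 UMIs 4 Hox genes (Hoxa7, Hoxa9, Hoxc6 and Hoxc8) were called, while Hoxa3, Hoxa5, Hoxa10, Hoxb9, Hoxc4, Hoxc5, Hoxc9, Hoxc10 and Hoxd8 lost the call and remained negative. The allantois marker genes in the members, among them Cdx4, Hoxa10 and Hoxc10, summed to 49.92 to 57.03 CPM in Dnmt1 KO and 107 to 243.8 CPM in WT, with Tbx4 at 0 by the rule. Of the sums for other lineages, the somitic and presomitic genes were at 14.39 to 27.06 CPM in Dnmt1 KO and 27.51 to 71.52 CPM in WT, and the neural genes at 6.207 to 10.01 CPM and 10.09 to 43.78 CPM, with no overlap. The intermediate mesoderm genes did overlap, at 31.39 to 62.33 CPM in Dnmt1 KO and 34.44 to 93.27 CPM in WT, as did those of pharyngeal and second heart field mesoderm, at 37.68 to 53.15 CPM and 29.3 to 67.44 CPM. The part in the Hox values of RNA from these lineages, or of allantois cells without a Tbx4 UMI, was not tested.

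**Figure D3:**
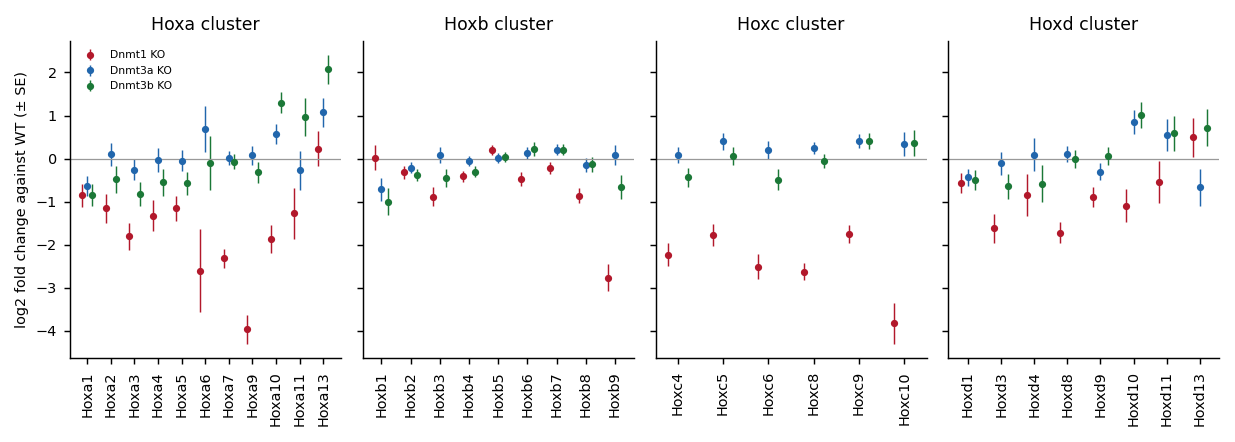
Log2 fold change against WT (± SE) of each tested Hox gene by cluster, ordered by paralogue number, for Dnmt1 KO (red), Dnmt3a KO (blue) and Dnmt3b KO (green). In the Hoxc cluster all 6 tested genes were lower in Dnmt1 KO. Hoxa13 and Hoxa10 were the 2 genes higher in Dnmt3b KO.

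No Hox gene was called in Dnmt3a KO members, where 0.183% of all genes were higher and 0.0141% lower, so a list of this size would hold few or no calls. Hoxb9 stood there at 41.6, 49.9 and 55.1 CPM in 3 libraries and 144 CPM in Dnmt3a KO 14. In Dnmt3b KO, 2 of the 35 Hox genes tested were higher, against 1.13% of all genes. Both lie at the 5' end of the Hoxa cluster. Hoxa10, at 1.71, 3.5 and 5.13 CPM in WT, stood at 8.06, 8.05 and 9.46 CPM (log2 change 1.30 ± 0.24, adjusted p = 0.00306). Its call was lost without Dnmt3b KO 11 (adjusted p = 0.0137) or Dnmt3b KO 12 (adjusted p = 0.03), and with members chosen after thinning or counts thinned to equal depth. Hoxa13, at 0.369 to 1.13 CPM in WT, stood at 2.17, 1.62 and 5.17 CPM (2.07 ± 0.33, adjusted p = 0.00103), and lost its call without Dnmt3b KO 12 (1.44, adjusted p = 0.0274). Both genes are also expressed in the allantois, and Hoxa10 was detected in 19.5% ± 3.66 of Tbx4-positive WT cells thinned to 3000 UMIs against 1.14% ± 0.55 of WT members.

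Imprinted genes, which are expressed from only 1 parental allele, moved in both directions in Dnmt1 KO. Of 48 tested, 9 were higher and 10 lower in Dnmt1 KO, against 4.59% and 2.44% of all genes. None was called in Dnmt3a KO and 2 were higher in Dnmt3b KO, where 0.183% and 1.13% of all genes were higher, so these 2 counts lie near what a list of this size would hold. Grb10 (chr11:11930508-12038683, minus strand), an inhibitor of growth factor receptor signalling, stood at 182, 209 and 268 CPM in the lowest, median and highest WT library and at 1.14, 1.48 and 1.99 CPM in Dnmt1 KO. It had the lowest p of all genes (log2 change -7.02 ± 0.21, adjusted p = 1.13e-13).

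On distal chromosome 7, Igf2 and H19 changed in opposite directions. Igf2 (chr7:142650766-142666816), an embryonic growth factor, stood at 22.5, 25.1 and 34.9 CPM in WT and 0.597, 0.635 and 0.194 CPM in Dnmt1 KO (-5.76 ± 0.41, adjusted p = 1.54e-08). Its neighbour H19 (chr7:142575529-142578143), a non-coding RNA of the same domain, rose from 834 to 1140 CPM in WT to 3117, 2539 and 1729 CPM (1.47 ± 0.16, adjusted p = 2.02e-06). Igf2os, antisense to Igf2 and overlapping it, fell by 4.0 on the log2 scale, and how reads of the overlap were assigned was not tested. Cdkn1c, a cell cycle inhibitor in the neighbouring domain, fell from 132 to 201 CPM to 17.1, 12.5 and 9.18 CPM (-3.65 ± 0.24), while Kcnq1ot1, the long non-coding RNA of that domain, rose from 123 to 209 CPM to 346, 315 and 362 CPM (1.04 ± 0.17). Kcnq1ot1 lost the call in 4 settings, with sex or reference as a covariate, without WT 1 (0.98) and without Dnmt1 KO 3 (0.97).

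Neighbouring genes of other imprinted domains also moved apart. On chromosome 17 Igf2r, a receptor that clears IGF2, fell from 105 to 143 CPM to 36.4, 22.9 and 31.3 CPM (-1.92 ± 0.15), and Airn, the RNA that runs antisense to it, rose from 16.2 to 24.2 CPM to 54.3, 43.7 and 37.2 CPM (1.20 ± 0.11). On proximal chromosome 7 Peg3, a zinc finger gene, rose from 664 to 838 CPM to 2613, 2273 and 1790 CPM (1.60 ± 0.09), and its neighbour Zim1 fell from 8.49 to 13.7 CPM to 0.657, 0.423 and 0.194 CPM (-4.55 ± 0.27). Dlk1, a Notch-like ligand on chromosome 12, stood at 246 to 730 CPM in WT and 70.1, 58 and 33.9 CPM in Dnmt1 KO (-3.03 ± 0.31). Its neighbour Meg3, a non-coding RNA, was 955 to 1163 CPM in WT and 2034, 1746 and 1326 CPM in Dnmt1 KO, a change of 0.78 ± 0.10 that was under the minimum size (adjusted p = 3.28e-05). In each gene named in this and the preceding paragraph the Dnmt1 KO libraries lay outside the WT range. Most of these genes were named for their call, and the share of all genes tested that lay outside it was not counted.

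**Figure D4:**
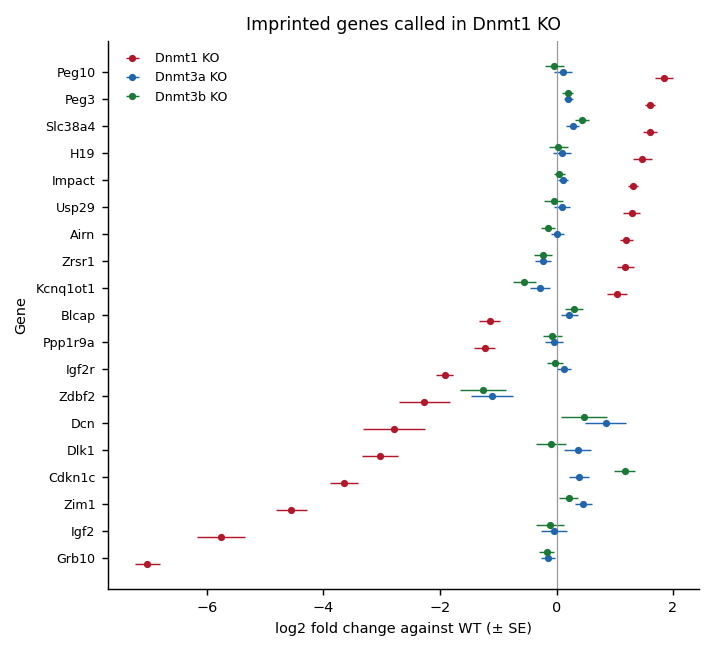
Log2 fold change against WT (± SE) of the 19 imprinted genes called in Dnmt1 KO (red), with Dnmt3a KO (blue) and Dnmt3b KO (green) beside them. Grb10 lies furthest to the left, at -7.02, and Peg10 furthest to the right, at 1.84.

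In Dnmt3b KO the called imprinted genes were Cdkn1c, at 287, 331 and 539 CPM against 132 to 201 CPM in WT (1.17 ± 0.18, adjusted p = 0.000781), and Slc22a18, a transporter gene beside it (1.54 ± 0.31). Cdkn1c lost the call without Dnmt3b KO 12 (0.88, adjusted p = 0.0204). Slc22a18 lost it in 14 settings, among them the fits without any 1 of WT 2 to 7, without Dnmt3b KO 11 or without Dnmt3b KO 12 (0.98, adjusted p = 0.232). Cdkn1c was lower in Dnmt1 KO and higher in Dnmt3b KO members, in comparisons that share the WT libraries.

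Germline genes, which act in meiosis, the piRNA pathway and spermatogenesis, were higher in all 3 KO groups. Of 41 tested, Dnmt1 KO had 36 higher, Dnmt3a KO 14 and Dnmt3b KO 31, against 4.59%, 0.183% and 1.13% of all genes tested, and none was lower in any group. The median log2 changes were 5.55, 2.18 and 4.98 in that order. With genes that had no count in any WT library set at the bound that 3 counts over the group allow, the medians were 5.14, 2.13 and 4.98. The list had been chosen with earlier results of these embryos known and is not independent evidence of its direction. Members that passed the low-count filter through a KO group alone had to differ, and 5 of the 46 genes listed were not tested.

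The 4 genes whose promoters are shown above were near 0 in WT and raised in every KO library. Stk31 stood at 0.119, 0.2 and 0.48 CPM in the lowest, median and highest WT library, at 11.5, 7.26 and 5.59 CPM in Dnmt1 KO, 3.59, 4.41, 7.26 and 6 CPM in Dnmt3a KO, and 3.32, 4.91 and 13.2 CPM in Dnmt3b KO. Its log2 changes were 5.09 ± 0.43, 4.38 ± 0.41 and 4.82 ± 0.42. Rpl39l stood at 0 to 2.08 CPM in WT, 165, 168 and 159 CPM in Dnmt1 KO, 5.76, 9.39, 16.3 and 8.4 CPM in Dnmt3a KO and 33.5, 63.8 and 139 CPM in Dnmt3b KO. Its changes of 7.84 ± 0.47, 3.69 ± 0.49 and 6.69 ± 0.47 thus differed in size where those of Stk31 were closer together. No KO library of either gene overlapped WT, and both genes had been chosen by their call.

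Syce1 stood at 0 to 0.206 CPM in WT and at least 0.691 CPM in every KO library, with log2 changes of 5.14, 3.41 and 5.5 in the 3 KO groups in the order above. Slc25a31 stood at 0.138 to 1.44 CPM in WT and at least 3.82 CPM in every KO library, with changes of 5.82, 4.12 and 6.25. Tex15, needed for meiotic repair and piRNA-directed silencing, had the lowest p in Dnmt3a KO. It stood at 2.13, 2.69 and 4.03 CPM in WT, at 24.5, 24.4 and 22.4 CPM in Dnmt1 KO, at 12.2, 14.3, 11.4 and 13 CPM in Dnmt3a KO, and at 8.21, 6.08 and 12.3 CPM in Dnmt3b KO. Its log2 changes were 3.07, 2.06 and 1.55 (SE 0.19 to 0.20), so Dnmt3a KO lay above Dnmt3b KO for this gene, a difference between KO groups that was not tested.

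Other germline genes were raised in Dnmt1 KO and Dnmt3b KO and not called in Dnmt3a KO. Sycp1, a transverse filament protein of the synaptonemal complex, stood at 0 to 0.961 CPM in WT, 43.5, 36.1 and 24.9 CPM in Dnmt1 KO, 0 to 0.602 CPM in Dnmt3a KO and 13.7, 16 and 36 CPM in Dnmt3b KO (log2 change in Dnmt1 KO 7.62 ± 0.52). Taf7l, a germ cell paralogue of a general transcription factor on the X chromosome, stood at 0 to 0.0977 CPM in WT, 4.36, 2.96 and 1.85 CPM in Dnmt1 KO and 3.99, 3.57 and 4.28 CPM in Dnmt3b KO. Tex13b and Rhox13 on the X chromosome had no count in any WT library. Against the bound of 3 counts over the WT group, Tex13b was at least 234-fold higher in Dnmt3b KO, but it stood at 18.2 CPM in Dnmt3b KO 12 and at most 0.212 CPM in the other Dnmt3b KO libraries, and was not called there.

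Dnmt3b KO 12 stood apart from the other Dnmt3b KO libraries in these genes. Dazl, an RNA-binding protein of germ cells, stood at 6.42, 25.2 and 380 CPM in Dnmt3b KO 1 and 2, 11 and 12, and at 84.5, 86.3 and 50.5 CPM in Dnmt1 KO, against at most 0.269 CPM in WT. In Dnmt3a KO it stood at 1.29, 2.71, 13 and 9.28 CPM, all above WT, and was not called (5.64 ± 1.29, adjusted p = 0.0713). Without Dnmt3b KO 12 the germline list had 27 called genes in Dnmt3b KO in place of 31, and all genes tested had 92 in place of 166. This library was the only one whose matrix header names Cell Ranger 5.0.0. It was also female, whereas the other Dnmt3b KO libraries were male. The part of these differences in its values was not tested. In Dnmt3a KO the germline count ranged from 7, without Dnmt3a KO 13, to 18, without Dnmt3b KO 12.

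**Figure D5:**
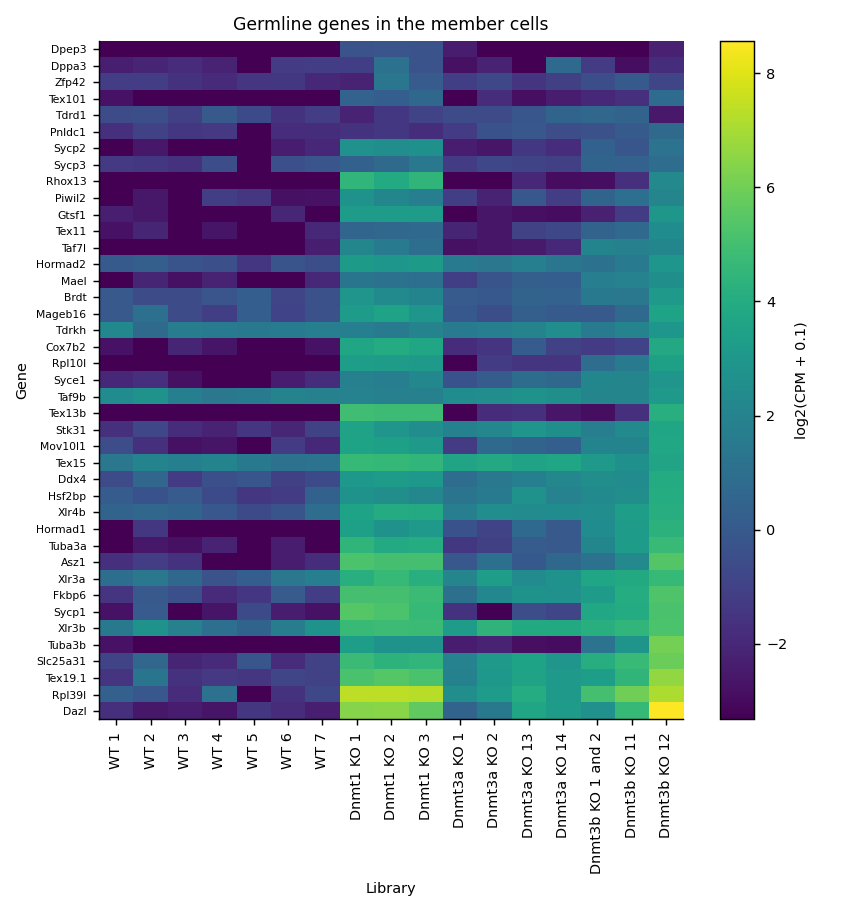
Level of each tested germline gene, as log2(CPM + 0.1) in colour, in the member cells of the 17 libraries (columns), ordered by the Dnmt3b KO mean. The WT columns are dark for most genes, and the column of Dnmt3b KO 12 is brighter than those of the other Dnmt3b KO libraries for genes such as Dazl (380 against 6.42 and 25.2 CPM).

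Genes called higher in all 3 KO groups numbered 22, and no gene was called lower in all 3. Without Dnmt3a KO 13, 10 of the 22 (Ddx4, Hormad1, Hormad2, Hsf2bp, Psma8, Tex12, Tex19.1, Xlr, Xlr3b and Xlr4b) lost the Dnmt3a KO call, and all of these but Xlr4b also lost it without some single WT library. With counts thinned to equal depth 18 of the 22 lost the Dnmt3a KO call, and Rpl39l, Slc25a31, Stk31 and Tex15 kept it. Of the 22, 14 belong to the germline list: Ddx4, Fkbp6, Hormad1, Hormad2, Hsf2bp, Mael, Rpl39l, Slc25a31, Stk31, Syce1, Tex15, Tex19.1, Xlr3b and Xlr4b. The other 8 were 8030474K03Rik, Cyct, Noxred1, Psma8, Slc9b1, Tex12, Ulbp1 and Xlr. Cyct, the testis cytochrome c, stood at 0 to 0.274 CPM in WT, 21.7, 20.2 and 18.6 CPM in Dnmt1 KO, 1.89, 4.09, 4.62 and 2.12 CPM in Dnmt3a KO and 4.96, 15.8 and 26.7 CPM in Dnmt3b KO. Ulbp1, a ligand of the NKG2D immune receptor, rose by 3.18 ± 0.33, 2.41 ± 0.31 and 1.95 ± 0.34 on the log2 scale, and lost the Dnmt3b KO call without Dnmt3b KO 12 (1.73, adjusted p = 0.0273). Xlr, Xlr3b and Xlr4b belong to a family of near-identical X-linked copies between which reads can be split, as can those of Tuba3a and Tuba3b, so their single values are uncertain.

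Outside these lists, genes of lowest p in Dnmt1 KO included Clvs1, Noct and Trim5. Clvs1, a lipid-binding protein of the endocytic pathway, stood at 0.0489 to 0.297 CPM in WT and 22.2, 20.5 and 15.2 CPM in Dnmt1 KO (log2 change 7.17 ± 0.28, adjusted p = 5.81e-12). Noct, a circadian phosphatase, rose from 10.4 to 15.2 CPM to 81.7, 83.7 and 61.8 CPM (2.70 ± 0.12). Trim5, an antiviral factor, rose from 0 to 0.178 CPM to 19.5, 23.6 and 26.3 CPM (8.57 ± 0.39). Smim3, a small membrane protein, fell from a WT median of 15.8 CPM to 3.7, 4.94 and 3.74 CPM (-1.85 ± 0.13). None of these 4 genes was called in Dnmt3a KO or Dnmt3b KO. Rnf17, a tudor protein of the male germline, was higher in Dnmt1 KO (2.76 ± 0.15) and in Dnmt3b KO (1.40 ± 0.15).

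Matrix and adhesion genes encode the fibres and junctions by which this mesenchyme lines the yolk sac. Of 27 matrix genes tested, 5 were lower in Dnmt1 KO members and 1 higher, against 2.44% and 4.59% of all genes (list median -0.35), so the count of higher genes was close to that share. Mfap2, a microfibril protein, stood at 24.4, 29.7 and 53.2 CPM in WT and 4.06, 2.68 and 4.66 CPM in Dnmt1 KO (log2 change -2.97 ± 0.27, adjusted p = 3.5e-07). Lum, a small proteoglycan that binds collagen, varied over 31.7, 99.3 and 347 CPM in the lowest, median and highest WT library and stood at 7.4, 11.9 and 3.01 CPM in Dnmt1 KO (-4.21 ± 0.72, adjusted p = 0.000316). Dcn, a related proteoglycan, fell by 2.79, Col6a1, a chain of collagen VI, by 1.73 and Postn, a matrix protein of mesenchyme, by 1.79 on the log2 scale. None of these 3 called genes overlapped WT, a share that was not counted over all genes tested. Postn lost the call without WT 1, WT 2, Dnmt1 KO 2 or Dnmt1 KO 3 (-1.40, adjusted p = 0.0409), and Col6a1 without Dnmt1 KO 3 (adjusted p = 0.0169). Dcn and Col6a1 also lost it with members chosen after thinning. Eln, the elastin precursor, rose from at most 0.44 CPM in WT to 1.49, 0.564 and 1.51 CPM. The matrix genes Sparc and Fn1 overlapped WT, at 224 to 340 CPM and 210 to 288 CPM in Dnmt1 KO against 268 to 499 CPM and 266 to 316 CPM in WT.

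Of 15 adhesion and epithelial genes, 2 were higher and 2 lower in Dnmt1 KO, against 4.59% and 2.44% of all genes. Vcam1, which binds integrin alpha 4 in the joining of allantois and chorion, rose from 3.5 to 6.25 CPM in WT to 9.73, 10.9 and 8.26 CPM (1.09 ± 0.23, adjusted p = 0.00189). Cdh1, the epithelial cadherin, rose by 1.44 ± 0.35, with Dnmt1 KO 1 at 3.52 CPM inside the WT range of 0.807 to 4.63 CPM. The keratins Krt19 and Krt7 fell by 1.32 and 2.83 on the log2 scale. Each of these 4 calls was lost in some fit without 1 library, that of Vcam1 without Dnmt1 KO 2, that of Cdh1 without WT 7, Dnmt1 KO 2 or Dnmt1 KO 3, and those of both keratins without Dnmt1 KO 1 or Dnmt1 KO 3. Krt18 was 830 to 1056 CPM in WT and 1563, 1444 and 1041 CPM in Dnmt1 KO (0.65 ± 0.15, adjusted p = 0.00407, below the minimum size).

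Among 15 tested factors that act on vessels and blood, Igf2 and Vegfc fell in Dnmt1 KO, where 2.44% of all genes did. Vegfc, a ligand of lymphatic and venous endothelium, stood at 10.2, 12.4 and 15.4 CPM in WT and 6.57, 4.87 and 5 CPM in Dnmt1 KO (-1.10 ± 0.14, adjusted p = 1.28e-05), and lost the call with members chosen after thinning. Kitl, the stem cell factor, was 48 to 72 CPM in WT and 124, 106 and 115 CPM in Dnmt1 KO, a change of 1.00 ± 0.14 that fell short of the minimum before rounding (adjusted p = 3.91e-05). None of the matrix, adhesion or vascular genes was called in Dnmt3a KO or Dnmt3b KO. Of all genes, 0.183% were higher and 0.0141% lower in Dnmt3a KO, and 1.13% and 0.0423% in Dnmt3b KO. Lists of this size would thus hold few or no calls.

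Of 19 targets of p53 tested, 7 were higher in Dnmt1 KO, against 4.59% of all genes (list median 0.68). When members were chosen after thinning to 3000 UMIs, Sesn2, Ccng1 and Pmaip1 lost the call, Cdkn1a and Phlda3 had negative changes of -0.35 and -0.17, and Trp53inp1 and Eda2r were not tested. That fit lacked WT 5 and also Dnmt1 KO 3, the library with the highest Cdkn1a level of its group. Mitochondrial genes took 3.11% to 3.51% of the UMIs of Dnmt1 KO members and 2.29% to 2.65% of those of WT members, with no overlap, and the part of this difference in the p53 target values was not tested. Cdkn1a, the cell cycle inhibitor p21, stood at 3.59, 5.28 and 7.15 CPM in WT and 10.3, 17.2 and 20.8 CPM in Dnmt1 KO (1.63 ± 0.27, adjusted p = 0.000244). Ccng1 rose from 13.7 to 18.3 CPM to 38.9, 43.4 and 50.4 CPM (1.47 ± 0.18), and Trp53inp1, Pmaip1 (which encodes the apoptosis factor NOXA), Eda2r, Sesn2 and Phlda3 rose by 1.10 to 2.84, with the call of Phlda3 lost without Dnmt1 KO 3 (0.91). No p53 target was called in Dnmt3b KO, where 1.13% of all genes were higher. Dnmt3b KO 12 nevertheless reached 18.4 CPM of Cdkn1a and 41.6 CPM of Ccng1 where the other Dnmt3b KO libraries stood at 6.16 and 9.68 CPM and at 22.5 and 15.8 CPM. Apart from Cdkn1c, none of 26 cell cycle genes was called in any group, with list medians of -0.05, 0.03 and 0.07. Over all genes, 4.59%, 0.183% and 1.13% were higher and 2.44%, 0.0141% and 0.0423% lower in Dnmt1 KO, Dnmt3a KO and Dnmt3b KO. A list of this size would thus hold few calls.

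Genes of other lineages were also counted in the Dnmt1 KO members, where 4.59% of all genes were higher and 2.44% lower. A single call in a list of 5 to 8 genes is a value of that gene and not of the list. In the neural list 1 of 6 was lower (Sox1, -3.20 ± 0.73, list median -2.57), in intermediate mesoderm 1 of 5 (Osr1, -1.72 ± 0.29), in the somitic and presomitic list 0 of 6 (list median -1.01), and in gut endoderm 1 of 8 was higher (Trh, 2.86 ± 0.55). Sox1 lost the call without any 1 of the 3 Dnmt1 KO libraries, Osr1 with sex as a covariate and Trh without doublets and low-quality cells. In the extraembryonic ectoderm list 2 of 6 were higher (Rhox6 and Rhox9, list median 2.46), and Rhox9 lost the call with members chosen after thinning. No erythroid gene was called, with 9 of 9 negative (list median -3.28). Of 8 cardiomyocyte genes tested, Tnni1, Tnnt2 and Myl7 (sarcomere proteins) and Smarcd3 (a chromatin remodelling subunit) were higher and Actc1 (cardiac actin) was lower. Tnni1 stood at 32.9, 77.8 and 106 CPM in WT and 320, 240 and 204 CPM in Dnmt1 KO (1.92 ± 0.34, adjusted p = 0.000494). Tnnt2 lost the call without Dnmt1 KO 1, and Myl7 and Smarcd3 lost it with members chosen after thinning. With Nkx2-5, which the rule holds at 0, the 9 genes of the list summed to between 163.4 and 323.8 CPM in WT members and 528.7 to 671.6 CPM in Dnmt1 KO members. The other cells of Dnmt1 KO libraries had a lower median sum (327.5 CPM) than those of WT (967.7 CPM). The part of cardiac cells in the members was not tested. With sex as a covariate 2 genes of the list were called higher, and Actc1 lost its call in 9 settings, among them the fits without Dnmt1 KO 1 or Dnmt1 KO 2.

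Of the genes that the study names, 3 of 6 tested markers of extraembryonic tissue and 3 of 4 tested genes of primed pluripotency were higher in Dnmt1 KO, against 4.59% of all genes, and these lists are not independent evidence. Rhox5, an X-linked homeobox gene, stood at 14, 24.4 and 46.5 CPM in WT, 226, 280 and 156 CPM in Dnmt1 KO and 30.7, 58.2 and 378 CPM in Dnmt3b KO, where the change of 2.57 fell to 0.82 without Dnmt3b KO 12 and the call was also lost without any 1 of WT 2 to 7. Trap1a, a tumour antigen gene of the X chromosome, was 4.63 to 12.9 CPM in WT and 163, 162 and 93.6 CPM in Dnmt1 KO (4.07 ± 0.56). In Dnmt3b KO it stood at 5.93, 13.3 and 134 CPM (2.52 ± 0.56, adjusted p = 0.017, not called). Utf1, Slc7a3 and Pim2, expressed in the epiblast, rose by 2.69, 2.40 and 1.69 in Dnmt1 KO. Utf1 lost the call in 6 settings, among them the fits without doublets and low-quality cells, without Dnmt1 KO 2 (adjusted p = 0.037) and without Dnmt1 KO 3 (adjusted p = 0.0119). Pim2 lost it without doublets and low-quality cells, and Slc7a3 with sex as a covariate.

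Dnmt3a KO members differed from WT in few genes. Of 14198 genes, 26 were higher (0.183%) and 2 lower (0.0141%). The 2 lower genes were Dnmt3a itself and Gstm6, a glutathione S-transferase (chr3:107938847-107943749, minus strand). Gstm6 stood at 3.23, 6.32 and 7.89 CPM in the lowest, median and highest WT library and at 0.599, 0.378, 0.883 and 1.34 CPM in Dnmt3a KO (log2 change -2.96 ± 0.42, adjusted p = 0.00143). This call was also lost without Dnmt3a KO 13, and its reads may be shared with the neighbouring Gstm copies. Without that library 12 genes were called in all, and without Dnmt3b KO 12, which enters the fit through the shared spread, 48. With the reference genome used for counting as a covariate, 17 genes were higher and 2 lower, and 18 of the 28 calls were shared. All 4 Dnmt3a KO embryos were male, so sex and genotype were nearly inseparable, and with sex as a covariate 20 of the 28 calls were shared.

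Dnmt3b KO members had 160 genes higher (1.13%) and 6 lower (0.0423%), with 35 of the 166 on the X chromosome, which is 6.39% of the X-linked genes tested against 0.96% of the others. Dnmt3b KO held 2 male libraries of 3 and WT 1 of 7, and these shares were not recomputed with sex as a covariate. The lowest p among the 6 belonged to Gm14226 (chr2:155018266-155027104, plus strand), a predicted protein-coding gene of unknown function. It stood at 15.8, 31.9 and 42.6 CPM in WT and 0.0373, 0.0707 and 0.116 CPM in Dnmt3b KO (log2 change -8.58 ± 0.58, adjusted p = 5.49e-08). In Dnmt3a KO it was 8.19 to 18.1 CPM, below or at the low end of WT, and was not called.

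The next was Ahcy (chr2:155059310-155074497, minus strand), which hydrolyses S-adenosylhomocysteine, the product of every methylation reaction. It stood at 19.2, 21.3 and 27.4 CPM in WT and 6.57, 6.61 and 7.64 CPM in Dnmt3b KO (-1.66 ± 0.14, adjusted p = 2.86e-07). Both genes lie on the same chromosome as Dnmt3b (chr2:153649450-153687730, plus strand). The other 4 lower genes were Mapk8ip2, a kinase scaffold, Ulk4, a kinase-like gene, Lrfn3, a synaptic adhesion gene, and Rpgrip1, a ciliary protein, which fell by 2.30, 1.97, 1.76 and 1.11. Ulk4 lost the call without Dnmt3b KO 12 (adjusted p = 0.0213), Lrfn3 without Dnmt3b KO 1 and 2 or Dnmt3b KO 11, and Rpgrip1 without WT 7, Dnmt3b KO 1 and 2 or Dnmt3b KO 12 (-0.94, adjusted p = 0.079). Rhox6 and Rhox9, X-linked homeobox genes of the placenta, rose in Dnmt3b KO by 4.90 ± 0.62 and 5.79 ± 0.89, with Rhox6 at 8.85, 17.6 and 115 CPM against 0.508 to 5.15 CPM in WT. Without Dnmt3b KO 12 the change of Rhox9 was 3.76 and not called (adjusted p = 0.0322). The other trophoblast markers add to these in the extraembryonic ectoderm list, whose 8 genes summed to 14.33 to 163 CPM in Dnmt3b KO, 36.87 to 88.46 CPM in Dnmt1 KO and 1.954 to 14.48 CPM in WT members, with Tpbpa at 0. The part of trophoblast RNA in these values was not tested. The surface ectoderm keratin Krt14 rose by 1.55 ± 0.30 and lost its call in several fits that left out 1 library, 1.48 without Dnmt3b KO 12.

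The change in members was then set against the change in all other barcodes of the same libraries, in a model with library as a block. In Dnmt1 KO 731 of 16060 genes (4.55%) changed by a different amount, 490 more positively in members and 241 more negatively. Without Dnmt1 KO 1 this count was 414 and without Dnmt1 KO 3 it was 1241. Igf2 fell further in members, from a mean of 26.6 to 0.475 CPM, than in other cells, from 7.37 to 0.964 CPM (difference -2.83 ± 0.35 on the log2 scale, adjusted p = 7.54e-05). Mesp1 rose from 4.14 to 31.4 CPM in members and from 2.41 to 5.35 CPM in other cells (2.05 ± 0.34). Wnt6 fell from 43.1 to 16.3 CPM in members and stood at 22 and 19.3 CPM in other cells (-1.17 ± 0.20). Cdkn1c, which fell in both, fell less in members, from 172 to 12.9 CPM, than in other cells, from 338 to 8.74 CPM (1.49 ± 0.24).

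Of the 37 Hox rows tested in this model, 13 changed more positively in members than in other cells, against 3.05% of all genes, and none changed more negatively. By cluster these were 1 of 11 in Hoxa, 5 of 9 in Hoxb, 5 of 8 in Hoxc and 2 of 9 in Hoxd, and the part of single libraries in the Hox count was not tested. Hoxb8 stood at 71.5 and 37 CPM in WT and Dnmt1 KO members and at 34.6 and 8.3 CPM in other cells (1.06 ± 0.19, adjusted p = 0.000894). Hoxb3, Hoxb4, Hoxb5 and Hoxb6 differed in the same direction, by 1.16 to 1.44. The other cells are a mixture whose composition differs between groups, as the summed marker levels above show, and a change in that mixture cannot be told apart here from a change within each type.

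In Dnmt3b KO 10 genes differed between members and other cells (0.0623%), all with a larger rise in members, and 4 differed without Dnmt3b KO 12. The 10 were Rhox6, Taf7l, Tex19.1 and 7 members of the Xlr family (Xlr3a, Xlr3b, Xlr3c, Xlr4a, Xlr4b, Xlr4c and Xlr5a). Taf7l rose from 0.014 to 3.95 CPM in members and from 0.242 to 2.02 CPM in other cells (4.83 ± 0.48, adjusted p = 0.000164). For Xlr3a the WT level was lower in members than in other cells (1.92 against 10.3 CPM), and the Dnmt3b KO levels were 17.8 and 21 CPM. Of the 10 genes, 9 lie on the X chromosome. In Dnmt3a KO no gene passed with edgeR, and 867 of 16060 had an unadjusted p under 0.05.

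Against the Tbx4-positive cells, the nearest population by the rule, 9 of 14450 genes (0.0623%) changed by a different amount in Dnmt1 KO. There 2 libraries had at least 20 cells of both kinds. Their Tbx4-positive cells numbered only 20 in Dnmt1 KO 2 and 21 in Dnmt1 KO 3. Rgs5, a regulator of G protein signalling in mural cells, rose from a mean of 32.4 to 77.5 CPM in members and fell from 109 to 37.1 CPM in Tbx4-positive cells (2.94 ± 0.39, adjusted p = 0.00105). Hoxa7 fell from 40.8 to 7.18 CPM in members and from 71.4 to 48.2 CPM in Tbx4-positive cells (-1.82 ± 0.29). Fabp3, a fatty acid-binding protein of muscle, rose from 4.25 to 37.6 CPM in members and stood at 3.82 and 2.45 CPM in Tbx4-positive cells (3.83 ± 0.59). In Dnmt3a KO and Dnmt3b KO no gene passed with edgeR, with 1173 and 1544 genes at an unadjusted p under 0.05. Leaving out 1 library moved the Dnmt1 KO count between 0 and 40. The counts of 0 without Dnmt1 KO 2 and 1 without Dnmt1 KO 3 came from fits with a single Dnmt1 KO library, taken to vary like the other groups, and the 40 from the fit without WT 7.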

How the data were processed

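Single E8.5 embryos were profiled by 10x Genomics 3' single-cell RNA-seq. Per the labels, the deposited values are UMI counts per gene and barcode, made by the authors with Cell Ranger 3.1.0, or 5.0.0 for Dnmt3b KO 12, and 4 libraries used a reference joining human and mouse genomes, of which only mouse rows were kept. Members were chosen by the rule given above, and the members and gene lists were chosen with earlier results of these data known. Counts of members were summed per library, and Dnmt3b KO 1 and 2 were summed together, which left 17 libraries in 4 groups.

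The main test was edgeR 4.0.16 (quasi-likelihood, TMM, filterByExpr, R 4.3.3) on the summed counts, with 1 model over all groups and Benjamini-Hochberg adjustment. Shares of members were compared by exact permutation of library labels after thinning barcodes to 3000 UMIs, with 0.5 cells added to each share. Changes in members and in other cells were compared in a model with library as a block, over libraries with at least 20 cells of both kinds. Member UMIs per library ranged from 3719028 to 32015148, and intervals of low counts cover counting error only. On simulated counts for Dnmt1 KO against WT (13655 genes, 200 changed by 2 on the log2 scale) the test recovered 99.5% with 0 false calls. The changed genes were drawn only from those above a set WT level, and counts followed the spread fitted to these data. Recovery of genes near 0 in WT, such as germline genes, was not tested.

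Named genes were the 3 defining and 3 excluding genes, the 3 Dnmt genes, the 8 higher and 8 lower called genes of lowest p per KO group, up to 6 called genes per list (or the 2 of highest WT level), and every gene called in all 3 groups. Genes of the mitochondrial genome, of ribosomal proteins and of the Y chromosome, with Tsix and Xist, were left out of the ranking by p, and other genes in the text were named after their values were seen. Alternatives were DESeq2 1.42.0, other size factors, no low-count filter, other member minimums, sex, reference or replicate number as covariates, quality filters without doublets, thinned counts, stricter rules and leaving out each library. Whether replicate numbers pair the libraries was not tested, because correlations were computed for same-numbered libraries only. Promoters were matched to RefSeq entries by symbol. One marker and the values that depend on it are not reported here.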

Additional observations from a re-analysis of the deposited data

Results flagged for a closer look

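Of 66 values tested for a library that stands far from the others of its group, 9 were found, where chance gives about 1 in 20 groups. Dnmt3a KO 14 was the highest of its group for Hoxb9 (143.6 CPM), Grb10 (257.2 CPM) and Vegfc (17.62 CPM). Dnmt3a KO 2 was the highest for H19 (1243 CPM) and the lowest for the share of members at full depth (4.249%), and Dnmt3a KO 13 was highest for Mesp1 (1.325 CPM). Among WT libraries, WT 3 was the lowest for Peg3 (664.1 CPM), WT 1 the highest for Mfap2 (53.21 CPM) and WT 2, the only male of the group, the highest for Rhox6 (5.146 CPM).

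The change in members differed from the change in the other cells for 731 genes in Dnmt1 KO and 10 genes in Dnmt3b KO, by the interaction term. Against Tbx4-positive cells it differed for 9 genes in Dnmt1 KO. The part of cell type composition in these differences was not tested.

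The human rows of the 4 libraries counted on the combined reference were used in no comparison, and held 0.00991% of the UMIs of Dnmt3a KO 1, 0.0094% in Dnmt3b KO 11, 0.00906% in WT 1 and 0.00889% in Dnmt3a KO 13.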

How the results depend on the processing

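The number of called genes in Dnmt1 KO members was 997, and became 203 when members were chosen after thinning and 474 with counts thinned to equal depth, both resting on fewer UMIs. The fit on members chosen after thinning also lacked Dnmt1 KO 3 and WT 5, whose 13 and 12 thinned members were under the minimum of 20. In Dnmt3a KO 28 calls became 44 with no low-count filter, 59 with DESeq2, 5 with members chosen after thinning and 5 with thinned counts. In Dnmt3b KO 166 calls became 265 with sex as a covariate, 47 with members chosen after thinning and 81 with thinned counts. Leaving out 1 library gave 800 to 1064 calls in Dnmt1 KO, 12 (without Dnmt3a KO 13) to 48 (without Dnmt3b KO 12) in Dnmt3a KO, and 92 (without Dnmt3b KO 12) to 257 (without Dnmt3b KO 1 and 2) in Dnmt3b KO. Without doublets and low-quality cells 916, 26 and 161 of the calls were shared with the 3 KO results. With replicate number as a block the calls were 842, 4 and 24. In that fit Dnmt3b KO 1 and 2 entered as separate libraries, despite their shared barcodes. WT 4 to 7, Dnmt3a KO 13 and 14 and Dnmt3b KO 11 and 12 carry numbers that no other library has. The block takes up their values, so the Dnmt3a KO and Dnmt3b KO changes rested on replicates 1 and 2 of each group. Correlations of same-numbered libraries ranged from -0.106 to 0.24, with no other pairs beside them, so they cannot decide on pairing by number. Under this block Rhox5 (-0.37), Trap1a (-0.93) and Dnmt3a (0.02) changed sign in Dnmt3b KO.

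For the change in members against other cells, leaving out 1 library gave 414 (without Dnmt1 KO 1) to 1241 (without Dnmt1 KO 3) genes in Dnmt1 KO, 0 to 4 in Dnmt3a KO and 4 (without Dnmt3b KO 12) to 12 in Dnmt3b KO, the quality filters gave 2 in Dnmt3a KO and no low-count filter gave 18 in Dnmt3b KO. Against Tbx4-positive cells leaving out 1 library, added after seeing the data, gave 0 (with a single Dnmt1 KO library left) to 40, 0 to 2 and 0 to 1. The log2 difference in share reversed in Dnmt1 KO at full depth (0.919) and 6000 UMIs (0.590), and in Dnmt3a KO with only the mouse reference (-0.368). Leaving out 1 library gave -0.672 to 0.187 in Dnmt1 KO, -0.157 to 0.322 in Dnmt3a KO and 0.176 to 0.457 in Dnmt3b KO. The Dnmt3a KO value was -0.080, -0.003 and -0.016 without WT 2, 3 and 5 and -0.044 without Dnmt3a KO 13.

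Of 182 called results for single genes, 43 lost the call without some 1 library, 50 with the block, 23 with the sex covariate, 10 with the reference covariate, 21 of 180 with 2 UMIs of each gene, 57 of 152 with members chosen after thinning, 37 of 173 with thinned counts, 8 of 181 without doublets and low-quality cells, and none with DESeq2, other size factors or no low-count filter. With members chosen after thinning, Phlda3 (-0.17) and Cdkn1a (-0.35) reversed in Dnmt1 KO. Dnmt3b in Dnmt3b KO, which was not called, was 0.13 with the sex covariate, 0.08 with members chosen after thinning, and -0.26 to 0.07 without 1 library. The cause of these shifts was not tested.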
